A study of Mus musculus with 4 samples.

Results

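The genes described here encode the machinery that makes peptides and displays them on MHC class I molecules. They comprise 10 genes: the heavy chains H2-K1 and H2-D1, the light chain B2m, the peptide transporter Tap1 and Tap2, the loading chaperone Tapbp, the immunoproteasome subunits Psmb8, Psmb9 and Psmb10, and the transcriptional activator Nlrc5. They were taken by symbol from the count tables of activated CD4+ T cells. All 10 were listed among 23238 symbols, and all 10 were among the 11464 genes with enough counts to be tested. The 4 libraries were 2 of the genotype labelled PDK4 KO, called Pdk4 KO here, and 2 labelled WT, both on strain C57BL/6j. The extent of the Pdk4 deletion, the cells it affects and the age of the mice are not given in the labels. In both genotypes magnetic beads were used to isolate naive CD4+ cells out of lymph nodes and spleen, and stimulation with IL-2, CD28 and CD3 lasted 48 hours. The Lexogen QuantSeq kit reads RNA from its 3′ end, so that a count stands for a transcript and needs no scaling by gene length.

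Class I molecules carry peptides from proteins made inside the cell to the surface, where CD8+ T cells and NK cells read them. The proteasome cuts proteins into peptides, and the immunoproteasome is a form of it in which Psmb8, Psmb9 and Psmb10 stand in place of Psmb5, Psmb6 and Psmb7. The TAP1-TAP2 transporter moves peptides into the endoplasmic reticulum, where tapasin, the product of Tapbp, holds the empty class I molecule beside the transporter until a peptide is bound. Interferons raise most of these genes in many cell types, and NLRC5, working with the RFX, CREB and NF-Y factors at a conserved promoter module, drives class I transcription in T cells.

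Promoter windows were searched for exact letters of the element through which NLRC5 is known to work and of interferon-type elements. A window without a match can still hold a variant of an element, and sequence outside the windows was not searched. RefSeq windows (GRCm38.p6, 250 bases before to 50 after a start site) were matched for 8 of the 10 members, and Tap2 and Nlrc5 had none. A spaced pair, TGACG and then ATTGG after 20 other bases, stood in the windows of H2-K1, H2-D1 and B2m, 3 of 8 members, against 0.0944% of 32851 windows of the same length. Both strands were searched, and a gene was counted where any of its windows held the letters. The pair was searched for as part of the known class I promoter module, so these shares are a description and not a test. TGACG is the core of the CREB-type X2 element and ATTGG is the NF-Y element in reverse. The 3 stretches are shown because they hold these letters of the class I promoter module, and the capitals mark the spaced pair.
H2-K1 (chr17:34000359-34000388, minus strand): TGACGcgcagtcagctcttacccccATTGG
H2-D1 (chr17:35262993-35263022, plus strand): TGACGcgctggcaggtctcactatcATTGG
B2m (chr2:122147609-122147638, plus strand): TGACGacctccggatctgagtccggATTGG

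Exact interferon-type letters were in a smaller share of member windows than of interferon-induced genes outside class I. That share, 1 of 8 for each element, was not below the share of all windows. The core of the interferon-stimulated response element (ISRE), GAAANNGAAA, was in 1 of 8 member windows, against 15 of 22 genes of a list of interferon-induced genes outside class I and 3.44% of all windows. The gamma-activated site, TTCNNNGAA, was in 1 of 8 member windows, in 7 of 22 genes of that list and in 8.3% of all windows. CCAAT, the NF-Y element, was in 6 of 8 member windows against 37.4% of all windows, and TGACG in 5 of 8 against 20.8%, both on either strand and counting those inside the spaced pair. Tap1 and Psmb9 start 225 bases apart and run away from each other, so their windows share sequence, in which TGACG occurred without the spaced ATTGG. The window of Tapbp held neither the ISRE core, the gamma-activated site nor the spaced pair, and that of Psmb10 held none of the motifs searched. The stretches below mark the ISRE core, the gamma-activated site or TGACG in capitals, and Isg15 and Oas3 are shown as interferon-induced genes for comparison. In Isg15 the capitals join overlapping matches.
B2m, ISRE core (chr2:122147538-122147567, plus strand): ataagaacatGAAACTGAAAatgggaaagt
Psmb8, gamma-activated site (chr17:34198088-34198116, plus strand): tcctccgctgTTCCCAGAAgatgcccccc
Tap1 and Psmb9, TGACG (chr17:34187460-34187489, plus strand): cagagacaggTGACGacagagggtcctgcc
Isg15, ISRE core (chr4:156200865-156200906, minus strand): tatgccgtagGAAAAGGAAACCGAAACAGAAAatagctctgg
Oas3, ISRE core (chr5:120777715-120777744, minus strand): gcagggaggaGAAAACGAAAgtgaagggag

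The libraries had 9739624 and 9104413 counts in Pdk4 KO and 8837810 and 9575879 in WT. Pdk4 itself was at or under a floor of 3 counts in each library (0 and 2 counts in Pdk4 KO, 1 and 0 in WT), which is no check of the genotype. CD4 T cell markers, of which 9 of the 12 listed were in the tables, were present throughout, at a sum of 2804 and 2831 CPM in Pdk4 KO and 2968 and 3045 CPM in WT. Of these 9, the co-receptor gene Cd5 rose (log2 fold change 0.29, adjusted p = 0.0341) and the adhesion gene Cd2 fell (-0.41, adjusted p = 0.000107). Markers of B cells, which also carry class I molecules, were lower in Pdk4 KO. The 14 in the tables summed to 111 and 127 CPM in Pdk4 KO and 216 and 249 CPM in WT, and 9 of 12 tested fell, with a median log2 fold change of -2.74. Cd74, which did not pass (-0.13, adjusted p = 0.734), made up most of the Pdk4 KO sums, and without it the other 13 summed to 23.6 and 26.2 CPM in Pdk4 KO and 130 and 130 CPM in WT. Pax5 was at 0 in all libraries and Cd22 at 0 in both Pdk4 KO libraries. Of 16 tested CD8 T and NK cell markers 1 rose, 2 fell and 13 were not called, with a median log2 fold change of -0.26. All 18 summed to 493 and 445 CPM in Pdk4 KO and 652 and 659 CPM in WT. Most of the difference between these sums came from 1 of the 2 genes that fell. The 17 markers of myeloid and dendritic cells summed to 9.40 and 21.1 CPM in Pdk4 KO and 17.6 and 15.6 CPM in WT. Of the 7 tested, 0 were called by edgeR, DESeq2 or limma-voom and 1 was down at an unadjusted p under 0.05. The 6 innate-like T cell markers in the tables summed to 7.46 and 7.94 CPM in Pdk4 KO and 15.1 and 19.7 CPM in WT, and the 1 tested, the transcription factor gene Maf, fell (-1.16, adjusted p = 0.0261). The part of these cells in the values below was not tested. In bulk RNA, fewer cells of a type and less RNA per cell cannot be told apart.

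Class I and immunoproteasome mRNA levels lay close together in Pdk4 KO and WT cells, and Tapbp was the 1 member that rose, by a small amount. In edgeR's quasi-likelihood test, with p adjusted over all 11464 genes, 1 of the 10 members rose and 0 fell, beside 1.45% of all tested genes that rose and 1.21% that fell (2.66% in either direction). With 1 member called, the count alone says little about the group. Of the members, 1 was up and 0 were down at an unadjusted p under 0.05, and DESeq2 and limma-voom gave 1 rise and 0 falls as well. Among all 11464 tested genes, 779 were up and 766 down at an unadjusted p under 0.05. The unadjusted counts of the other lists below stand beside this same background. The median log2 fold change of the members was 0.03, against 0.00041 for all tested genes. For 7 of the 10 members the genotype means differed by less than the replicates of at least 1 genotype did. The share of all tested genes for which this holds was not computed, so this count says little about the members. Together the members took 1.02% and 1.12% of all counts in Pdk4 KO and 0.997% and 1.08% in WT, so that replicates lay further apart than the genotypes. The labels do not state that replicates are different mice or cultures, and the p-values then reflect only library-to-library spread, possibly technical.

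**Figure D1:**
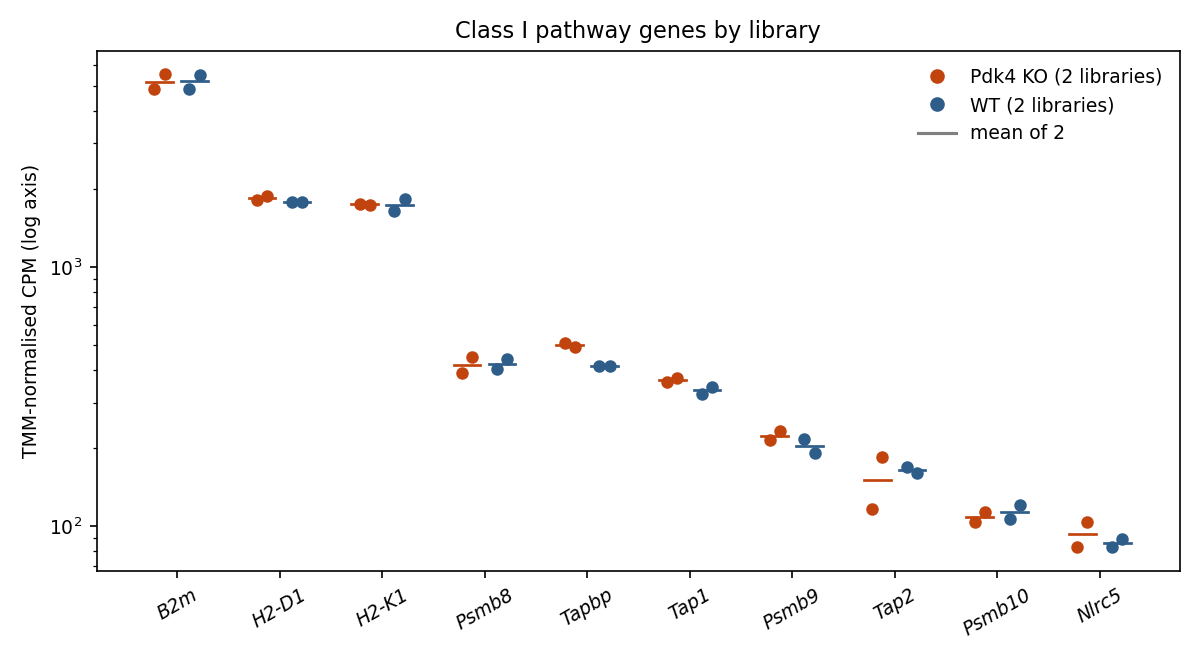
TMM-normalised CPM (log axis) of the 10 genes, ordered by WT mean, in the 2 Pdk4 KO libraries (left of each pair) and the 2 WT libraries (right), with a bar at each mean. B2m stands highest, at means of 5192 and 5198 CPM, Nlrc5 lowest, at 93.3 and 86.2 CPM, the points of Tapbp separate by genotype, and the Pdk4 KO points of Tap2 lie far apart.

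B2m, the light chain shared by all class I molecules (chromosome 2, 122147686 to 122153083, GRCm38), was the most abundant member, with the rank of 5 among all tested genes in Pdk4 KO and 7 in WT. It had 4851 and 5533 CPM in Pdk4 KO libraries, against 4871 and 5525 CPM in WT libraries. The groups overlapped almost completely, and the log2 fold change was -0.0018 with a 95% interval of -0.12 to 0.12 (SE 0.0576, adjusted p = 0.996). Patl2, whose gene model spans B2m on the other strand, had 0 counts in each of the 4 libraries.

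The heavy chains were likewise close between genotypes. H2-K1 (chromosome 17, 33996017 to 34000347) had 1748 and 1740 CPM in Pdk4 KO and 1647 and 1829 CPM in WT, with the Pdk4 KO values inside the WT range (log2 fold change 0.01, interval -0.12 to 0.13, adjusted p = 0.986). H2-D1 (chromosome 17, 35262730 to 35267499) had 1820 and 1884 CPM in Pdk4 KO and 1776 and 1787 CPM in WT. Its groups did not overlap, but the difference was small and not past the test (log2 fold change 0.06, interval -0.06 to 0.17, adjusted p = 0.741). The ratio of H2-K1 and H2-D1 together to B2m was 0.736 and 0.655 in Pdk4 KO and 0.703 and 0.655 in WT, which overlapped (two-sided exact permutation p = 0.667, where 2 libraries against 2 cannot go below 0.333).

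Class I genes are related in sequence, and how reads that match several genes were treated is not given in the sources used here. In GENCODE vM21 transcripts, 9.6% of the 50-base stretches in the last 500 bases of H2-K1 and 8.92% of those of H2-D1 also occurred in another gene. The share was 0% for B2m, Tap2, Psmb8, Psmb9, Psmb10 and Nlrc5, 2.75% for Tap1 and 4.83% for Tapbp. H2-L, a class I gene that this strain is known to lack, was listed with 7 and 2 counts in Pdk4 KO and 13 and 2 in WT. Values of H2-K1 and H2-D1 are therefore uncertain, to an extent that these shares do not measure.

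Tapbp (chromosome 17, 33915899 to 33929292), which encodes tapasin, was the member that rose. It had 508 and 492 CPM in Pdk4 KO, against 415 and 416 CPM in WT, from 4971 and 4524 counts in Pdk4 KO and 3651 and 3937 counts in WT. The Pdk4 KO libraries were both above the WT libraries, at 500 ± 11.4 CPM in Pdk4 KO and 415 ± 0.594 CPM in WT (SD, n = 2 each). The log2 fold change was 0.27 (SE 0.071, edgeR adjusted p = 0.0306), which is 1.20-fold with a 95% interval of 1.09 to 1.33. The call rested on all 4 libraries: leaving out any 1 of them gave log2 fold changes of 0.24 to 0.29 with adjusted p of 0.0769 to 0.299, and upper quartile scaling gave 0.0513. Groups that do not overlap were also found for Tap1 and H2-D1, so that 3 of 10 members were higher in Pdk4 KO without overlap and 0 lower, beside 21.5% and 21.9% of all tested genes (43.4% in either direction).

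The gene models around Tapbp bear on its count. Zbtb22 lies inside the Tapbp model on the same strand and shares 3.69% of Tapbp's 3′ stretches. It had 283 and 244 counts in Pdk4 KO and 207 and 278 in WT, an overlapping pair of groups (log2 fold change 0.07, adjusted p = 0.934). Daxx, a nuclear chaperone gene that ends 308 bases before Tapbp on the same strand, had 1320 and 1281 counts in Pdk4 KO and 847 and 966 in WT. Daxx rose by 0.47 on the log2 scale (adjusted p = 0.00518), and was chosen after its values were seen. Whether reads of Daxx were counted for Tapbp was not tested. Rgl2, which starts 250 bases beyond Tapbp, had 117 and 96 counts in Pdk4 KO and 77 and 146 in WT (log2 fold change -0.11, adjusted p = 0.927).

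The transporter genes differed from each other in how steady they were. Tap1 (chromosome 17, 34187553 to 34197225) had 361 and 374 CPM in Pdk4 KO and 323 and 345 CPM in WT. Its groups did not overlap, and the log2 fold change of 0.14 (interval -0.02 to 0.29) was not past the test (adjusted p = 0.445). Tap2 (chromosome 17, 34203527 to 34216321) had 117 and 185 CPM in Pdk4 KO and 169 and 161 CPM in WT. The Pdk4 KO values lay on both sides of the WT values (log2 fold change -0.13, interval -0.38 to 0.12, adjusted p = 0.723).

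The 2 Pdk4 KO libraries were 1.59-fold apart for Tap2, with 1141 and 1706 counts, and of the 1881 genes averaging 100 CPM or more just 1, Tap2 itself, was that far apart between them. Without Pdk4 KO replicate 2 Tap2 would be called lower in Pdk4 KO (log2 fold change -0.50, adjusted p = 0.0181). Without Pdk4 KO replicate 1 it had a log2 fold change of 0.17 (adjusted p = 0.679). As a result the ratio of Tap1 to Tap2 counts was 3.09 and 2.02 in Pdk4 KO and 1.91 and 2.14 in WT. The WT libraries gave no such gap. Gm20496 and Gm15821, which overlap Tap2 on the other strand, were not listed in the count tables under these symbols.

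The immunoproteasome subunits showed no change past the test. Psmb8, which carries the chymotrypsin-like activity of the immunoproteasome (chromosome 17, 34197721 to 34201454), had 392 and 449 CPM in Pdk4 KO and 405 and 440 CPM in WT, with the WT values inside the Pdk4 KO range (log2 fold change -0.0091, interval -0.17 to 0.15, adjusted p = 0.981). Psmb9 (chromosome 17, 34181987 to 34187764) had 215 and 232 CPM in Pdk4 KO and 218 and 191 CPM in WT, and the groups overlapped (0.13, interval -0.05 to 0.31, adjusted p = 0.573). Psmb10, which replaces the trypsin-like subunit (chromosome 8, 105935735 to 105938444), had 104 and 113 CPM in Pdk4 KO and 107 and 121 CPM in WT, again overlapping (-0.07, interval -0.28 to 0.15, adjusted p = 0.865). Gm16156 spans Psmb10 on the other strand, and Gm20496 overlaps Psmb8 on the other strand. Neither was listed in the count tables under these symbols.

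The constitutive subunits that they replace did not pass the test either. Psmb5 had 137 and 150 CPM in Pdk4 KO and 159 and 169 CPM in WT (log2 fold change -0.19, interval -0.38 to 0.00050, adjusted p = 0.373). Psmb6 had 144 and 145 CPM in Pdk4 KO and 149 and 161 CPM in WT (-0.10, adjusted p = 0.72), and Psmb7 had 148 and 161 CPM in Pdk4 KO and 148 and 159 CPM in WT (0.01, adjusted p = 0.98). Psmb5 is uncertain, since 54.5% of the 50-base stretches at its 3′ end also occurred in the predicted gene Gm3375.

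The mRNA counts of each immunoproteasome subunit can be set against those of its counterpart within a library, free of scaling between libraries. Such ratios do not measure the assembled proteasome forms. The uncertainty of Psmb5 given above carries into its ratio to Psmb8 and into the summed ratio. Psmb8 had 2.85 and 2.98 counts per count of Psmb5 in Pdk4 KO, against 2.55 and 2.60 in WT. Psmb9 had 1.49 and 1.60 counts per count of Psmb6 in Pdk4 KO, against 1.47 and 1.19 in WT. Psmb10 went the other way, with 0.701 and 0.705 counts per count of Psmb7 in Pdk4 KO and 0.722 and 0.761 in WT. None of these 3 ratios overlapped between genotypes, but the two-sided exact permutation p of each was 0.333, the smallest that 2 libraries against 2 allow, and they were among 8 ratios computed. Over the 3 pairs summed, the ratio was 1.65 and 1.74 in Pdk4 KO and 1.60 and 1.54 in WT, 1.08-fold higher in Pdk4 KO.

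**Figure D2:**
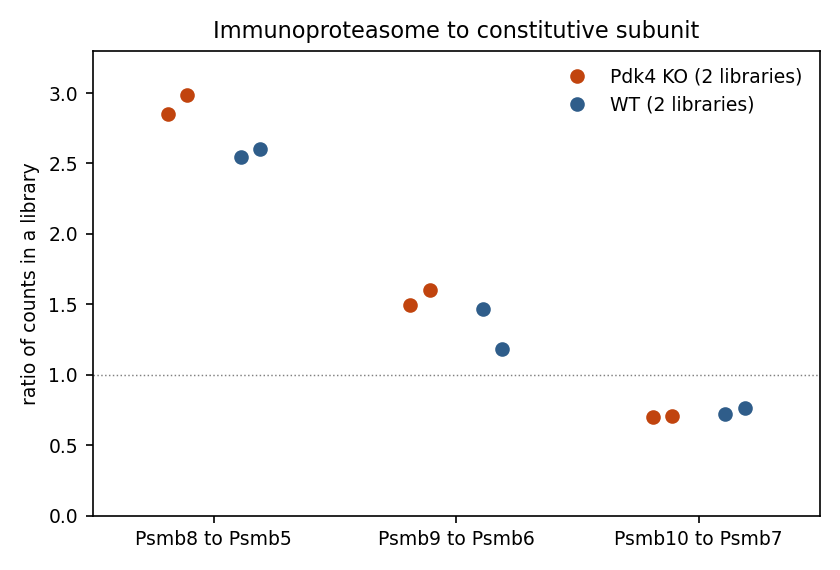
Ratio of the counts of each immunoproteasome subunit to the constitutive subunit it replaces, 1 point per library, Pdk4 KO left and WT right of each pair, with the dotted line at equal counts. Psmb8 to Psmb5 lies between 2.85 and 2.98 in Pdk4 KO and between 2.55 and 2.60 in WT, while Psmb10 to Psmb7 is slightly lower in Pdk4 KO.

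Nlrc5, the class I transactivator (chromosome 8, 94434356 to 94527272), was the least abundant member. It had 83.3 and 103 CPM in Pdk4 KO and 83.1 and 89.4 CPM in WT. The groups overlapped, and the log2 fold change was 0.11 (interval -0.13 to 0.35, adjusted p = 0.757). Among the members with a window, the 3 with the spaced pair printed above, H2-K1, H2-D1 and B2m, had log2 fold changes of 0.01, 0.06 and -0.0018. The 5 without it had 0.27 (Tapbp), 0.14 (Tap1), 0.13 (Psmb9), -0.0091 (Psmb8) and -0.07 (Psmb10). The values of these sets overlapped, and no relation of the letters to the fold change was tested.

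The members kept nearly the same order of abundance in both genotypes. In Pdk4 KO the order of means was B2m, H2-D1, H2-K1, Tapbp, Psmb8, Tap1, Psmb9, Tap2, Psmb10 and Nlrc5, and in WT it was the same except that Psmb8 (423 ± 24.8 CPM) stood before Tapbp (415 ± 0.594 CPM, SD, n = 2 each). Neighbours whose libraries overlapped in WT were H2-D1 with H2-K1 and Psmb8 with Tapbp. In Pdk4 KO no neighbours in this order overlapped.

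**Figure D3:**
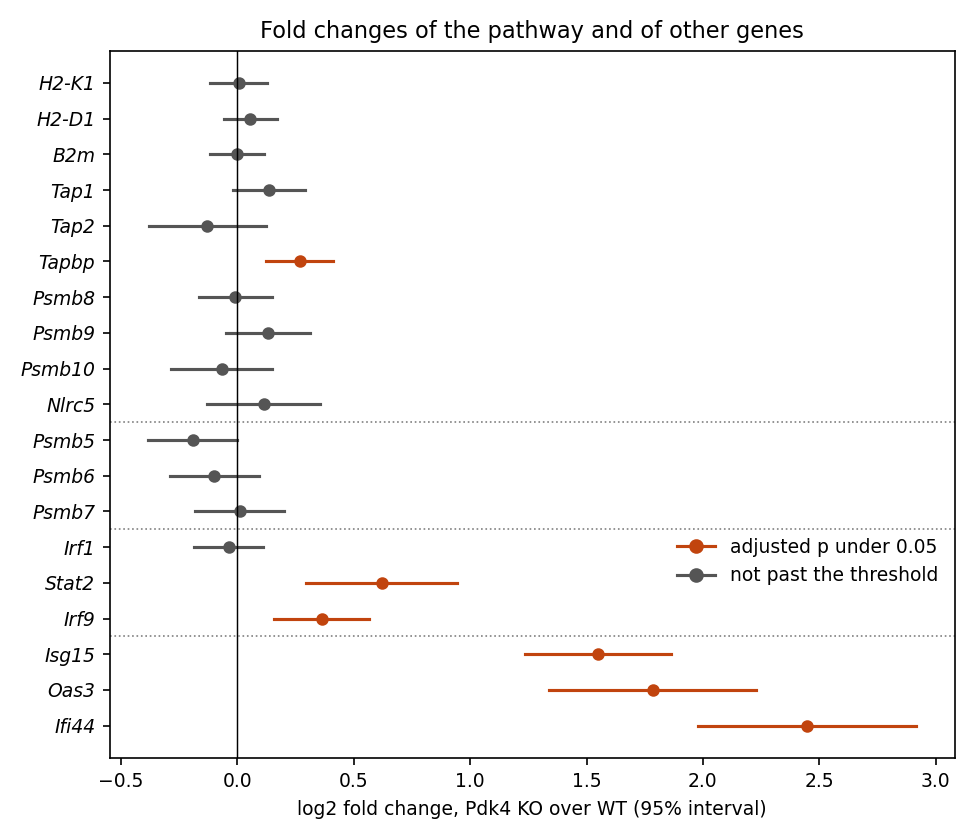
Log2 fold changes of Pdk4 KO over WT with 95% intervals for the 10 members (top), the constitutive catalytic subunits, 3 interferon-pathway transcription factors and 3 interferon-induced genes, with genes past adjusted p = 0.05 in orange. Every member interval lies between -0.38 and 0.41, while Isg15, Oas3 and Ifi44 stand at 1.55, 1.78 and 2.45.

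The intervals bound what these libraries could hide. The lowest bound of any member was -0.38 (Tap2) and the highest 0.41 (Tapbp) on the log2 scale, and 9 of 10 intervals included 0. For 7 of 10 members the fold interval lay within 0.8 to 1.25.

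No other class I heavy chain gene passed the test, though the low ones were poorly bounded. Of 23 other class I heavy chain genes, 21 were in the tables and 11 were tested, and 0 rose and 0 fell in edgeR, DESeq2 or limma-voom, with 1 up and 0 down at an unadjusted p under 0.05. That gene was H2-Q9, a Qa-2 antigen gene, at 367 and 380 CPM in Pdk4 KO and 321 and 344 CPM in WT (log2 fold change 0.17, adjusted p = 0.312). Its groups did not overlap. H2-Q4 had 2.76 and 4.13 CPM in Pdk4 KO and 0.795 and 1.90 CPM in WT (log2 fold change 1.33, interval -0.04 to 2.71, adjusted p = 0.387). H2-Q7 had 1.63 and 1.85 CPM in Pdk4 KO and 0.568 and 0.634 CPM in WT (1.51, interval -0.29 to 3.31, adjusted p = 0.481). The groups of both genes did not overlap, and both intervals are wide and include 0. H2-Q4 shared 33.7% and H2-Q7 11.8% of its 3′ stretches with other genes, so their values are uncertain, and for H2-Q9 this share was not computed. H2-T10 had 40.5 and 58.3 CPM in Pdk4 KO and 44.8 and 40.0 CPM in WT, and shares 59.4% of its 3′ stretches with H2-T22, so its value is uncertain too. H2-T24 had a log2 fold change of -0.22 (adjusted p = 0.67).

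Among 12 genes of peptide loading and trimming, 0 rose and 0 fell in edgeR, DESeq2 or limma-voom, with 1 up and 1 down at an unadjusted p under 0.05. The gene with the smallest p was Tapbpl, which encodes the tapasin-related peptide editor TAPBPR. It had 130 and 145 CPM in Pdk4 KO and 106 and 112 CPM in WT, a log2 fold change of 0.33 (interval 0.13 to 0.54, adjusted p = 0.0759), and its groups did not overlap. The chaperone Canx, which binds new heavy chains, had 315 and 342 CPM in Pdk4 KO and 368 and 370 CPM in WT (-0.17, adjusted p = 0.314). Nrd1, a cytosolic metallopeptidase, had a log2 fold change of -0.15 (adjusted p = 0.387).

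Proteasome genes outside the immunoproteasome moved little. Of 11 other subunits of the core particle, 18 of the regulatory cap, 4 activators and 5 assembly factors, 0 rose and 0 fell in edgeR, DESeq2 or limma-voom. At an unadjusted p under 0.05, 1 core subunit, 3 cap subunits and 1 assembly factor were lower, and 0 of these genes were higher. The median log2 fold changes were -0.02 for the core, -0.02 for the cap, 0.10 for the activators and -0.0051 for the assembly factors. The activator subunits Psme1 and Psme2 are induced by interferon gamma together with the immunoproteasome. Psme1 had 302 and 315 CPM in Pdk4 KO and 273 and 311 CPM in WT (log2 fold change 0.08, adjusted p = 0.744). Psme2 had 173 and 181 CPM in Pdk4 KO and 155 and 167 CPM in WT, without overlap (0.13, adjusted p = 0.575). Pomp, the assembly factor that the immunoproteasome also needs, had 497 and 508 CPM in Pdk4 KO and 552 and 565 CPM in WT (-0.15, adjusted p = 0.314). The core subunit Psmb1 had a log2 fold change of -0.18 (adjusted p = 0.245) and the cap subunit Psmd4 one of -0.20 (adjusted p = 0.221).

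**Figure D4:**
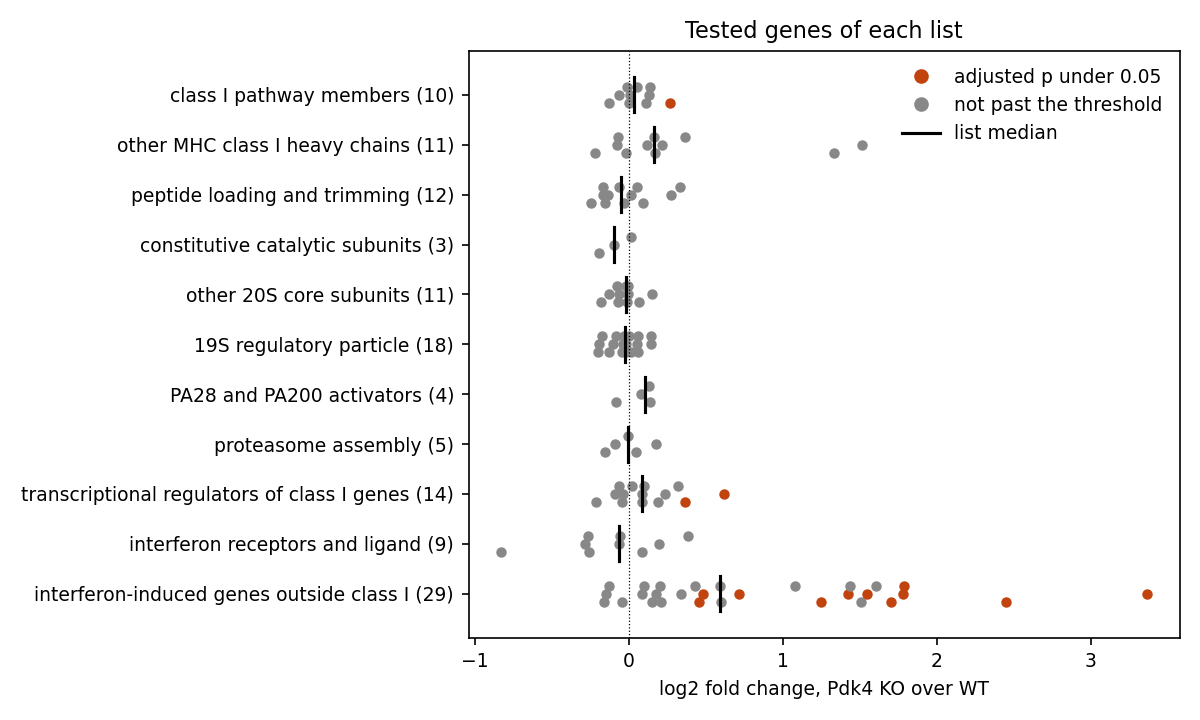
Log2 fold changes of Pdk4 KO over WT for every tested gene of each list (number tested in brackets), with the list median as a black bar and genes past adjusted p = 0.05 in orange. Members and proteasome lists gather around 0, with medians from -0.10 to 0.10, and the interferon-induced genes outside class I spread to the right with a median of 0.59.

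Of 14 tested transcriptional regulators of class I genes, 2 rose and 0 fell in edgeR, with 2 up and 0 down at an unadjusted p under 0.05. limma-voom gave 2 rises and 0 falls, and DESeq2 0 of each. They were Stat2 and Irf9, which encode parts of the complex that binds the ISRE. Stat2 had 58.1 and 57.7 CPM in Pdk4 KO and 29.9 and 45.3 CPM in WT (log2 fold change 0.62, SE 0.159, adjusted p = 0.0241). Irf9 had 154 and 138 CPM in Pdk4 KO and 119 and 109 CPM in WT (0.36, SE 0.101, adjusted p = 0.0434). Neither gene's groups overlapped. Neither was called with DESeq2 (adjusted p = 0.0876 and 0.0793), with upper quartile scaling (0.0567 and 0.0781) or without either Pdk4 KO library (0.0577 to 0.439). Irf9 was also lost without WT replicate 2 (0.329) and with the replicate number as a block (0.0532), and Stat2 without WT replicate 1 (log2 fold change 0.35, adjusted p = 0.402).

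Irf1, a factor through which interferon gamma acts on Tap1, Psmb9 and the heavy chains, did not pass. It had 512 and 496 CPM in Pdk4 KO and 484 and 551 CPM in WT (log2 fold change -0.04, interval -0.19 to 0.11, adjusted p = 0.896). Nfkb1 and the NF-Y subunits Nfyb and Nfyc had log2 fold changes of 0.19, -0.09 and 0.32 (adjusted p = 0.444, 0.673 and 0.573).

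A list of 9 genes held interferon receptors and the ligand gene Ifng, with the signalling genes Jak1, Jak2, Tyk2 and Socs1. Of these 9, 0 rose and 0 fell in edgeR, DESeq2 or limma-voom, with 1 up and 3 down at an unadjusted p under 0.05. Ifng, the interferon gamma gene, had 7.97 and 7.28 CPM in Pdk4 KO and 11.7 and 15.4 CPM in WT (adjusted p = 0.155). Ifnar1, a chain of the type I receptor, had 55.5 and 54.0 CPM in Pdk4 KO and 45.6 and 38.3 CPM in WT (0.39, adjusted p = 0.187). Socs1, an inhibitor of interferon signalling, had 99.4 and 110 CPM in Pdk4 KO and 126 and 126 CPM in WT (-0.27, adjusted p = 0.211). The groups of these 3 genes did not overlap.

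Interferon-induced genes outside class I are set beside the members here. Of 29 tested from a list of 30, 11 rose and 0 fell, and DESeq2 gave 10 rises and limma-voom 11, each with 0 falls. At an unadjusted p under 0.05, 19 were up and 0 down, beside 779 up and 766 down of all 11464 tested genes. The antiviral modifier Isg15 had 610 and 710 counts in Pdk4 KO and 211 and 224 counts in WT, a log2 fold change of 1.55 (adjusted p = 2.81e-08). The median log2 fold change of this list was 0.59, and the 10 member intervals all lay below it. The lists differ in abundance, however, and the 10 interferon-induced genes at 50 CPM or more in WT had a median of 0.18, which lay inside the intervals of 4 members and above those of the other 6. Of these 10 genes 3 rose, namely Trim25 (0.72), Iigp1 (0.48) and Parp14 (0.46). The 7 not called ranged from -0.16 to 0.21. They were the dNTPase gene Samhd1 (-0.14) and interferon-inducible GTPase genes on both sides of 0. The GTPase genes were Gbp2 (-0.16), Irgm2 (-0.04), Igtp (0.09), Gbp4 (0.15), Gbp7 (0.20) and Gbp5 (0.21). These 10 genes were named after their values were seen. The difference between the lists was not tested.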

How the data were processed

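The measurements are unnormalised counts by gene symbol, deposited by the authors as a table for each of 4 libraries. The submitters' processing notes name Bowtie2, edgeR and mm10 without roles or versions. The sources used here do not state the counting tool, annotation, use of strand or handling of multiply mapping reads. Of 23282 rows, duplicates of 35 symbols were added together. The 2 Pdk4 KO libraries were set against the 2 WT libraries with edgeR (version 4.0.16, R 4.3.3; filterByExpr, TMM, glmQLFit and the two-sided glmQLFTest, genotype as the only term), with Benjamini-Hochberg adjustment over 11464 genes. "Rose" and "fell" mean an adjusted p under 0.05. CPM are TMM-normalised. The standard error is the log2 fold change divided by the square root of F, and 95% intervals use the test's degrees of freedom.

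Alternatives were 3 other scalings, Rn45s left out, 2 other filters, DESeq2 1.42.0, limma-voom (limma 3.58.1), each library left out in turn, and the replicate number as a block. The test was tested on simulated data. Members, lists and tests were chosen with earlier results of these data known. Apart from the 10 members, Pdk4 and Psmb5, Psmb6 and Psmb7, the rule named up to 3 tested genes per list by smallest p, and up to 5 for the regulators and the other heavy chains. The lists are from general knowledge, and 1 listed gene is not reported here. Positions are from GENCODE vM21 on GRCm38, which mm10 names, and promoter sequences from RefSeq. A floor of 3 counts is 0.308 to 0.339 CPM. Floors cover counting error only, as no molecular identifiers are mentioned. Chi-square per degree of freedom between replicates was 5.45 in Pdk4 KO and 5.4 in WT, so no library was a copy of another.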

Additional observations from a re-analysis of the deposited data

How the results depend on the processing

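The count of members that rose was 1, and 0 with upper quartile scaling. It was 0 to 0 over the 4 fits that left out 1 library, in which the count that fell was 0 to 1, the 1 being Tap2 without Pdk4 KO replicate 2. The log2 fold change of Tapbp stayed between 0.24 and 0.29 over 13 alternatives and was called in 8. All other members but Tap2 passed in none of the alternatives. The median of the members was -0.02 to 0.13 over the alternatives, and that of all genes -0.01 to 0.02. In all, 305 genes were called, and 170 to 293 with 1 library left out (184 without WT replicate 2, 170 without Pdk4 KO replicate 1). Same-numbered libraries deviated together with a correlation of 0.0111, so the numbers were not taken to pair them. With the replicate number as a block 260 genes were called, Tapbp was (adjusted p = 0.0337) and Irf9 was not (adjusted p = 0.0532). The summed immunoproteasome ratio was higher in Pdk4 KO by 0.11 on the log2 scale, or 0.0750 to 0.151 with 1 library left out. Each member had at least 731 counts in every library. The precision is that of 2 libraries per genotype.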

Other observations

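H2-T9 and H2-T22, non-classical class I genes, had almost the same values in every library, at 83.2 and 83.2 CPM and at 86.2 and 86.1 CPM in Pdk4 KO, against 76.6 and 98.2 CPM and 79.5 and 102 CPM in WT. These genes were chosen after their values were seen, and the stretches that they share with each other were not computed.

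Within each genotype 8 of the 10 members were higher in the library numbered 2 than in that numbered 1. The share of all tested genes for which this holds was not computed, so whether the count is particular to the members is not known. B2m had 5533 CPM in Pdk4 KO replicate 2 and 4851 CPM in Pdk4 KO replicate 1, and 5525 CPM in WT replicate 2 and 4871 CPM in WT replicate 1, so its replicate difference was far larger than its difference between genotypes.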
